A study of Mus musculus with 21 samples.

Results

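RBBP4 binding was described from the 29762 peaks that the authors deposited for 1 RBBP4 chromatin immunoprecipitation sequencing (ChIP-seq) library from mouse ganglionic eminences at E13.5, out of 91480 peaks in the 6 ChIP lists of the series. All peaks of the RBBP4 list were taken, with no further selection. The tissue is the embryonic ventral forebrain (labelled basal ganglia) of CD1 mice, in which GABAergic neurons are born. The other ChIP lists came from CHD4, HDAC1, HDAC2, MBD3 and RBBP7 antibodies in the same strain, tissue and stage, with 1 library each and no genotype label beyond the strain. The ChIP cells were fixed with 5 mM DSG and 1% PFA, sonicated for 10 minutes and made into libraries of 180 to 400 bp. RBBP4 and RBBP7 were paired with the same input library (input 3), CHD4 and MBD3 with input 2, and HDAC1 and HDAC2 with input 1. Accessibility (ATAC-seq) came from Dlx1/2KO and WT embryos of CD1 mice at E12.5, each split into an FTpos fraction (ventricular zone) and an FTneg fraction (outer layers of the eminences). Each of its 4 lists compares KO with WT in 1 fraction, with 3 embryos per genotype combined.

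RBBP4 is a WD-repeat protein that binds histones and serves as a shared subunit of several chromatin complexes. In NuRD it works beside the remodeller CHD4, the deacetylases HDAC1 and HDAC2 and the MBD3 subunit, and it also belongs to Polycomb repressive complex 2 (PRC2), the Sin3 deacetylase complex, the chromatin assembly factor CAF-1, the remodeller NURF and the cell cycle complex DREAM. RBBP7 is its close paralogue and is found in several of the same complexes. PRC2 is known for wide domains over developmental regulator genes that are silent in a given tissue, and NuRD for enhancers and promoters.

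No list has a replicate, and the depth behind each list is unknown. The intervals below are 95% intervals over peaks, genes or regions and cover counting error only. Fold enrichment, the authors' ratio of ChIP to input at the peak summit, is used only to rank and describe peaks within the RBBP4 list. The lists of the CHD4, HDAC1 and HDAC2 samples carry other names (HDAC1, HDAC2 and CHD4), so they are called here the CHD4-labelled, HDAC1-labelled and HDAC2-labelled lists. Peaks do not measure expression, so the tissue could not be checked by its marker RNAs.

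The sequence found at RBBP4 start sites is shown first, because start sites with and without a peak differed in CpG content. A start site here is the first base of a RefSeq transcript of a protein-coding gene, and the 250 bases before it are printed 5′ to 3′ on the strand of the gene (RefSeq, GRCm38.p6, the assembly of mm10), with every CpG dinucleotide in capitals. Kpnb1, a nuclear import receptor (chr11:97187893-97188142, minus strand), had the strongest RBBP4 peak at a start with a sequence in the RefSeq table. Gsx1, a homeodomain factor of ganglionic eminence progenitors (chr5:147188446-147188695, plus strand), had the strongest start peak among GABAergic lineage factors. Mbd3 (chr10:80399532-80399781, minus strand) had the strongest among NuRD subunit genes. Its peak (chr10:80398521-80399519) lies inside the gene, so the bases printed for Mbd3 are not under the peak. Gbx2, a homeodomain factor of the midbrain and hindbrain boundary (chr1:89931177-89931426, minus strand), lies under one of the 5 widest peaks. Ins1, a pancreatic insulin gene (chr19:52264047-52264296, plus strand), and Myh4, a skeletal muscle myosin (chr11:67237562-67237811, plus strand), have no RBBP4 peak within 1000 bp of the gene. These last were picked as the entries of lowest CpG ratio in a list of genes of other organs, so their CpG counts illustrate low CpG content and support no contrast. They hold 0 and 1 CpG, against 28 in Kpnb1, 15 in Gsx1, 14 in Mbd3 and 18 in Gbx2.
Kpnb1: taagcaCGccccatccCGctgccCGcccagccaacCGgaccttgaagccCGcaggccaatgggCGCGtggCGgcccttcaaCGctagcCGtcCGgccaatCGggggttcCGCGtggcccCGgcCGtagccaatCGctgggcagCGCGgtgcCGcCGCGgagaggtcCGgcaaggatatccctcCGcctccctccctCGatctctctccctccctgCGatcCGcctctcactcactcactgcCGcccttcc
Gsx1: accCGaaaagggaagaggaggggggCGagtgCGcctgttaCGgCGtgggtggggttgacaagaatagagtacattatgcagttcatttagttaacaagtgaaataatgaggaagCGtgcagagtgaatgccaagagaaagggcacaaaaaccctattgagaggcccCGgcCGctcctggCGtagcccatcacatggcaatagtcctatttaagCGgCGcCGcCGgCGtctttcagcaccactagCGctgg
Mbd3: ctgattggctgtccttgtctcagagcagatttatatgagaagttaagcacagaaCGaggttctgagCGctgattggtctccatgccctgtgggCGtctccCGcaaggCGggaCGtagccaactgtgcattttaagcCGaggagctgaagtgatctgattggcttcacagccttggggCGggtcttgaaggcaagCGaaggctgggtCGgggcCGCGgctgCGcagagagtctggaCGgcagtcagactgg
Gbx2: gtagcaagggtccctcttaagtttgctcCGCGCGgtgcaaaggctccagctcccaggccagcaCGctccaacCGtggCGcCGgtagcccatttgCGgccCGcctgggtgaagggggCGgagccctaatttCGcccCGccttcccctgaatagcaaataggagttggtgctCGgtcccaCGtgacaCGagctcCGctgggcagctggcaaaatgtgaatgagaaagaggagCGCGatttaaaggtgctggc
Ins1: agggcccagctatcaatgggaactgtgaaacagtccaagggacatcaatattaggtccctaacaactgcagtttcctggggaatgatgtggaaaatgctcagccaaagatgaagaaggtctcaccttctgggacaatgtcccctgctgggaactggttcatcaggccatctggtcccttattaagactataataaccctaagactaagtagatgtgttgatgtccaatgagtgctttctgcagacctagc
Myh4: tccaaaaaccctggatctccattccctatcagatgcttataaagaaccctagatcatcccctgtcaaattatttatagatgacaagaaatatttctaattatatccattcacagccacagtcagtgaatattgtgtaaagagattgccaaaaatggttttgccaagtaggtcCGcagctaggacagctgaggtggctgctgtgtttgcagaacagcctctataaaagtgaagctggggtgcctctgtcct

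RBBP4 was found mostly at CpG-rich start sites and was rare at those with the fewest CpGs. Windows from 250 bases before to 50 bases after the start were read for 20417 start sites of 16782 genes. The 8792 windows that overlapped an RBBP4 peak had a median observed over expected CpG ratio of 0.796 (quartiles 0.652 and 0.926), and the 11625 windows without one had a median of 0.289 (quartiles 0.142 and 0.595). The difference of the medians was 0.507 (interval 0.499 to 0.516). A ratio of at least 0.6 was held by 81.5% of windows with RBBP4 and 24.8% of windows without it. The median GC content was 64% with RBBP4 and 51.3% without it.

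Read in the other direction, the share of windows under an RBBP4 peak climbed with CpG ratio and then levelled off. It was 1.66% (70 of 4213) at ratios under 0.2, 11.4% between 0.2 and 0.4 and 43.2% between 0.4 and 0.6. Above that it was 69.0% between 0.6 and 0.8, 73.9% between 0.8 and 1 and 70.5% (1207 of 1711) at 1 or more. Thus 2882 CpG-rich windows had no RBBP4 peak, and 1626 CpG-poor windows had one.

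**Figure D1:**
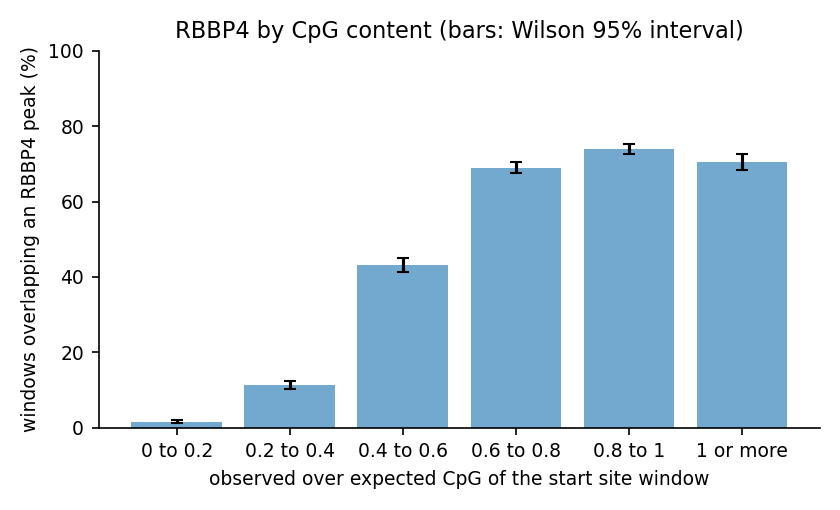
Share of start site windows that overlapped an RBBP4 peak (vertical axis, %) in 6 classes of observed over expected CpG ratio (horizontal axis), with Wilson 95% intervals over windows. The share is 1.66% in the lowest class and about 70% in the 3 highest, between 69.0% and 73.9%.

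Short sequence motifs followed CpG content. GGGCGG, the core of the GC box bound by SP and KLF factors, was found on either strand in 72.7% of windows with RBBP4, 28.8% of windows without it and 47.7% of all windows. Among CpG-rich windows the same motif was in 77.6% with RBBP4 and 66.5% without it, and among CpG-poor windows in 51.4% and 16.4%. TATAAA, the core promoter sequence bound by TBP, was in 5.38% with RBBP4 and 17.7% without it (12.4% of all). With and without RBBP4, it was in 4.70% and 7.60% of CpG-rich windows and in 8.36% and 21.0% of CpG-poor ones. TAATTA, a homeodomain core motif, was in 1.88% with RBBP4 and 6.38% without it (4.44% of all). Its shares with and without RBBP4 were 1.54% and 3.19% of CpG-rich windows and 3.38% and 7.43% of CpG-poor ones. CCAAT, the motif of NF-Y, stood at 38.5% with RBBP4, 38.3% without it and 38.4% over all windows. Within the CpG classes it was in 37.3% with and 34.7% without among CpG-rich windows. Among CpG-poor windows it was in 43.7% with and 39.5% without.

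CCGGAAG, an ETS motif, changed order within CpG-rich windows and kept it within CpG-poor ones. It was in 17.0% of windows with RBBP4 and 8.05% of those without it (11.9% of all), yet among CpG-rich windows it was in 18.8% with RBBP4 and 22.2% without it, and among CpG-poor windows in 9.10% with and 3.37% without. GCGCATG, the motif of NRF1, was likewise in 6.57% with and 3.69% without RBBP4 (4.93% of all), and among CpG-rich windows in 7.33% with and 10.9% without it, against 3.26% with and 1.30% without among CpG-poor ones. TGACGTC, a CRE sequence, was in 5.20% with and 3.05% without (3.98% of all), and in 5.79% with and 7.95% without among CpG-rich windows. Among CpG-poor windows it was in 2.58% with and 1.44% without. CAGCTG, an E-box bound by proneural factors, was in 14.5% with and 16.8% without RBBP4 (15.8% of all). This order was not kept within either CpG class. Among CpG-rich windows CAGCTG was in 12.87% with and 12.46% without RBBP4, which is nearly level. Among CpG-poor windows it was in 21.53% with and 18.27% without. All motifs were searched on both strands, none contains another, and a match describes letters in these windows only.

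By count, RBBP4 peaks were spread over starts, gene bodies and intergenic DNA in like numbers. The length of DNA in each class was not measured, so like counts do not mean like density. A peak was placed at a gene start when its summit lay within 1000 bp of a start of a protein-coding gene. For 4167 of 20949 genes the start is not in the table used, and either annotated gene end was taken (for example Hectd2, Abat and Mbd2, named below). On this rule 10841 peaks (36.4%, interval 35.9 to 37.0) lay at a start, 9314 (31.3%) lay inside a gene away from its start and 9607 (32.3%) lay between genes. The share at starts was 31.1% with a window of 500 bp and 42.1% with 2500 bp. Of all peaks, 49.4% lay over 10 kb and 22.2% over 100 kb from any start.

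The share at starts was 18.1 percentage points above that of the RBBP7 list (18.4% of 14918 peaks, interval of the difference 17.2 to 18.9). It was 9.52 points below that of MBD3 (45.9% of 11721 peaks) and 22.7 points below that of the CHD4-labelled list (59.2% of 18274 peaks). The HDAC1-labelled list had 59.1% of 11288 peaks at starts and the HDAC2-labelled list 39.4% of 5517 peaks.

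Summits placed at a start centred close to it, though most lay more than 100 bp away. For the 8785 summits within 1000 bp of a start in the table, the median position was 24 bp into the gene, with quartiles 124 bp upstream and 189 bp downstream, and 35.1% lay within 100 bp of the start. The 25% of peaks with the highest fold enrichment had a median position of 1 bp upstream, and the 25% with the lowest had 48 bp downstream.

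**Figure D2:**
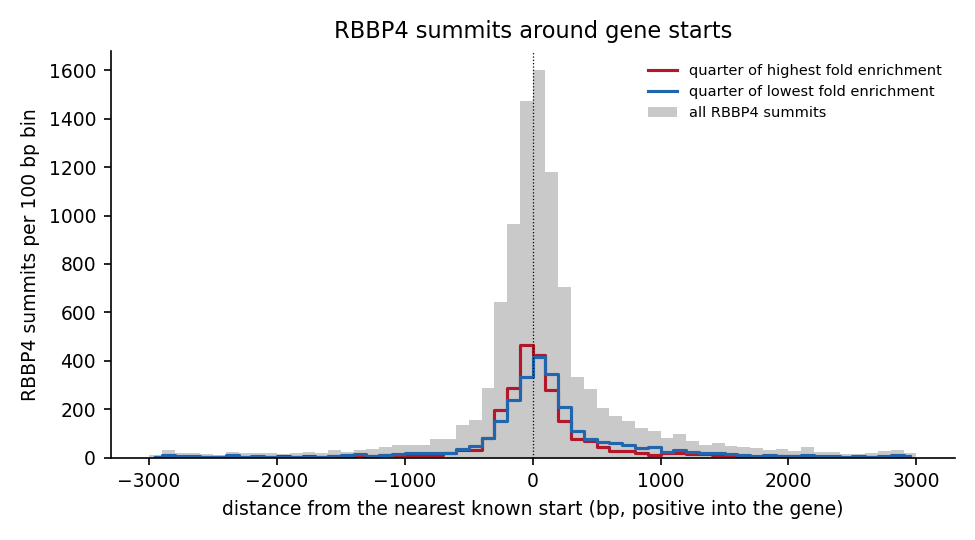
Number of RBBP4 summits per 100 bp bin (vertical axis) by distance from the nearest start of known position (horizontal axis, bp, positive into the gene), for all peaks (grey), the 25% of highest fold enrichment (red) and the 25% of lowest (blue). All 3 distributions centre on the start, with medians of 24 bp into the gene for all peaks, 1 bp upstream for the strongest and 48 bp into the gene for the weakest.

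Counted by gene, 10072 of 20949 protein-coding genes had an RBBP4 peak at a start, a background of 48.1% (interval 47.4 to 48.8) against which the gene lists below are read. Among 16782 genes with a known start, the annotated 5′ end had a peak in 43.9% and the 3′ end in 3.27%. Of 3′ ends over 5000 bp from any start, 1.31% had one. Start sites with an opposite start within 1000 bp upstream, which share one promoter region, had a peak in 69.2% (1143 of 1651), and other starts in 45.0%. Genes with a body of 100 kb or more had a start peak in 72.6% of cases, genes of 10 to 100 kb in 54.0% and genes under 10 kb in 30.9%.

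By chromosome, the autosomes held between 0.896 (chromosome 7) and 2.23 (chromosome 12) RBBP4 peaks per protein-coding gene. The X chromosome held 0.493 (446 peaks over 905 genes).

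Lists of the tissue's own lineages stood above the background, as did the Hox genes described below (82.1%). Genes of liver, muscle, pancreas and skin and olfactory receptor genes stood at or near 0. The background is over all genes and was not matched for CpG content. By CpG class, the share of start site windows under an RBBP4 peak ran from 1.66% to 73.9%. Of 23 ventricular zone progenitor genes, 22 had a start peak (95.7%, interval 79.0 to 99.2, background 48.1%), the exception being the glutamate transporter Slc1a3, whose body held 2 peaks of up to 6.68-fold. Among the strongest were those at the homeodomain gene Vax1 (12.1-fold), Id4 (9.39-fold), an inhibitor of basic helix-loop-helix factors, and the homeodomain gene Emx2 (7.77-fold). The median fold over all genes with a start peak was 5.06 (quartiles 4.16 and 6.32), so these 3 lay in its upper part.

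Of 35 GABAergic lineage factors, 30 had a start peak (85.7%, interval 70.6 to 93.7), with a median of 5.97-fold. Gsx1 led with 9.0-fold, its summit 13 bp upstream of the start. Sp9, a zinc finger gene of ganglionic eminence derivatives, had 8.59-fold under a peak 4494 bp wide. Lhx6, a LIM homeodomain factor of medial ganglionic eminence interneurons, had 8.14-fold under a peak 3523 bp wide, and Isl1, a striatal projection neuron factor, had 7.80-fold. Dlx1, Nkx2-1, Lhx8, Meis2 and Sp8 had no summit within 1000 bp of a start, but each held 1 or more peaks in its body, the strongest of 7.04-fold in Dlx1, 9.67-fold in Nkx2-1, 9.31-fold in Lhx8, 7.24-fold in Meis2 and 8.80-fold in Sp8. For Dlx1 this rests on the start in the table. Its peak of 7.04-fold has its summit (chr2:71528375) close to an annotated gene end (71528113).

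Of 7 genes of GABA synthesis and transport, 6 had a start peak. The vesicular GABA transporter gene Slc32a1 had 7.91-fold and the GABA transaminase gene Abat 8.23-fold. Gad2 and Gad1, the GABA-synthesising enzymes, had 5.13-fold and 3.75-fold, and the GABA transporter gene Slc6a11 had 5.47-fold. Slc6a13, a GABA transporter outside neurons, had none.

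The Notch pathway, which keeps progenitors from differentiating, had a start peak at 16 of 17 genes (94.1%). Hes6, a member of the Hes family, had 13.6-fold, above 99.7% of genes with a start peak. The ligand genes Dll1, Jag2 and Jag1 had 8.0-fold, 7.67-fold and 7.24-fold. Heyl was the member without one.

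Genes of the complexes that hold RBBP4 were read against the same background. NuRD subunit genes had a start peak at 14 of 15, led by Mbd3 (9.33-fold), Mbd2 (7.75-fold), the neuronal remodeller Chd5 (7.24-fold) and Rbbp4 itself (6.91-fold, a summit 551 bp upstream of its start and 47 bp from the opposite gene Zbtb8os). Rbbp7, on the X chromosome, had none at its start and none in its body. Of 9 PRC2 genes, 7 had a start peak (interval 45.3 to 93.7, which includes the background), with 8.35-fold at Jarid2, 6.39-fold at Mtf2, 5.15-fold at Eed and 4.60-fold at Suz12, and none at Ezh1 or Phf19. Of 13 Sin3 complex genes 11 had one (Ing2 9.31-fold, Ing1 7.65-fold, Sin3a 7.26-fold, Arid4b 7.18-fold, none at Sin3b and Sap30l). Of 10 DREAM and MuvB genes 9 had one (Lin37 8.25-fold, Rbl1 7.70-fold, E2f5 6.68-fold, Lin54 5.55-fold, none at Rbl2). Of 7 CAF-1, NURF and HAT1 partner genes 5 had one, with an interval of 35.9 to 91.8 that also includes the background (Asf1a 10.9-fold, Hat1 7.54-fold, Bptf 5.52-fold, Smarca1 4.43-fold, none at Chaf1a and Asf1b).

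Lists of genes used by most cells lay nearer to the background of 48.1%. Cytosolic ribosomal protein genes had a start peak at 34 of 73 (46.6%, interval 35.6 to 57.9), with the highest folds at Rps29 (11.9-fold), Rpl7 (10.7-fold), Rpl27 (9.25-fold) and Rpl34 (8.81-fold). Housekeeping genes had 7 of 12 (58.3%), with Hprt at 6.26-fold, Sdha at 4.39-fold and Polr2a at 4.21-fold, and none at Tbp, Ppia, Pgk1, Ywhaz and Rplp0. Cell cycle genes had 18 of 27 (66.7%, interval 47.8 to 81.4), led by the proliferation marker Mki67 (8.68-fold), the replication helicase gene Mcm7 (7.90-fold), and the mitotic kinase genes Bub1 (7.46-fold) and Plk1 (6.63-fold).

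Marker lists of other cell types had wide intervals. Cortical glutamatergic genes had a start peak at 11 of 16 (68.8%, interval 44.4 to 85.8), among them Fezf2 (8.48-fold), Eomes (8.42-fold), Emx1 (6.12-fold) and Neurod1 (5.80-fold). Neurod2, Neurod6, Tbr1, Slc17a7 and Nhlh1 had none. Oligodendrocyte and astrocyte genes had 4 of 13 (Olig1 11.2-fold, Sox10 5.84-fold, Mbp 5.34-fold, Pdgfra 4.36-fold). Endothelial and mural genes had 4 of 14 (Flt1 8.66-fold, Sox17 7.81-fold, Cldn5 6.4-fold, Kdr 3.86-fold) and microglial genes 2 of 10 (C1qa 6.26-fold, P2ry12 4.14-fold). The microglial list lacked a start peak at Aif1, C1qb, C1qc, Csf1r, Cx3cr1, Spi1, Tyrobp and Trem2.

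At the far end, 20 genes of liver, muscle, pancreas and skin had no start peak at all (0 of 20, which allows a share of up to 15% by a limit of 3 counts, or 16.1% by the Wilson interval). Olfactory receptor genes, whose promoters are CpG-poor in general, had 2 of 1108 (0.181%), at Olfr94 (9.93-fold) and Olfr452 (4.14-fold).

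**Figure D3:**
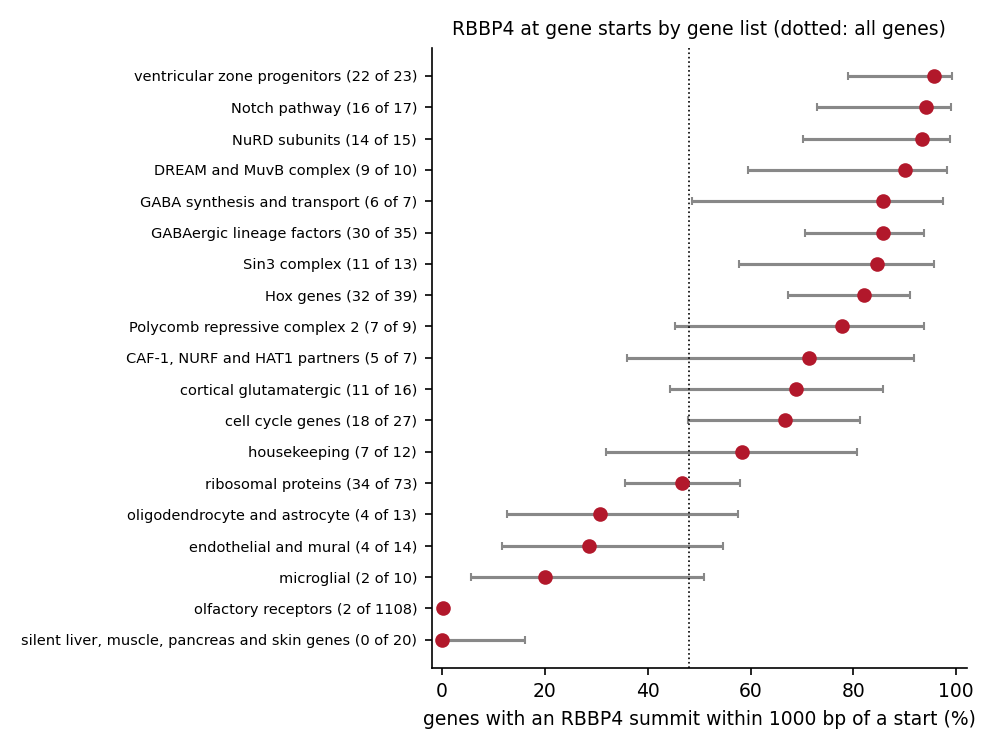
Share of genes with an RBBP4 summit within 1000 bp of a start (horizontal axis, %) for 19 gene lists (rows, with the count), with Wilson 95% intervals over genes and the background of 48.1% over 20949 genes as a dotted line. Progenitor, Notch and NuRD genes stand at 93.3% to 95.7%, ribosomal protein genes at 46.6%, and olfactory receptor and silent tissue genes at or near 0.

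The Hox genes, which pattern the hindbrain and trunk and are known to be silent in the forebrain, carried RBBP4 peaks with few partners. RBBP4 was at the start of 32 of 39 Hox genes (82.1%, interval 67.3 to 91.0, background 48.1%). Only 22 of the 39 have a start in the table used. For the others either annotated gene end was taken, which gives more positions to match. The share of 82.1% also depended on the window, at 21 of 39 genes (53.8%) within 500 bp and 39 of 39 within 2500 bp, against 44.0% and 50.6% of all genes. The interval at 500 bp, 38.6 to 68.4, includes the share of all genes. None of the 32 Hox start peaks overlapped the CHD4-labelled, HDAC1-labelled or HDAC2-labelled list (0 of 32 each, which allows a share of up to 9.38% by a limit of 3 counts, or 10.7% by the Wilson interval). Over all 10072 genes with a start peak, the shares were 75.8%, 50.3% and 17.6% for these lists. MBD3 overlapped 1 of 32 Hox start peaks, against 46.9% over all genes.

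RBBP7 overlapped 11 of the 32 (34.4%, interval 20.4 to 51.7), against 24.3% over all genes, and 21 of the 32 overlapped no other list. The median fold was 6.13 for the Hox genes, against 5.06 over all genes. Hoxd11 had the highest (11.9-fold), under a peak 4944 bp wide, followed by Hoxa11 (11.3-fold), Hoxa13 (11-fold) and Hoxa10 (9.46-fold), all 4 shared with RBBP7 alone. Of the 32 peaks, 14 were wider than 2000 bp, against the peaks of 337 of all 10072 genes. The members without a summit within 1000 bp were Hoxa2, Hoxa5, Hoxa7, Hoxa9, Hoxb9, Hoxd4 and Hoxd8.

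Cell cycle genes showed another set of partners. All 18 of their start peaks overlapped the CHD4-labelled list (interval 82.4 to 100) and 16 overlapped the HDAC1-labelled list (88.9%), whereas 3 overlapped MBD3 (16.7%, interval 5.84 to 39.2) and 4 overlapped RBBP7 (22.2%). GABAergic lineage factors had 25 of 30 start peaks in the CHD4-labelled list, 19 in the HDAC1-labelled list, 5 in the HDAC2-labelled list, 18 in MBD3 and 13 in RBBP7. Progenitor genes had 20, 15, 3, 9 and 11 of 22 in the same order of lists. These are descriptions of short lists, and the differences between lists were not tested.

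The widest RBBP4 peaks lay mostly near genes of transcriptional regulators and were shared above all with RBBP7. The median width was 532 bp, and 36 peaks (0.121%) were over 5000 bp wide, a class chosen after its values were seen. Of the 36, 34 had a gene for a transcriptional regulator as the nearest gene, 17 of them a homeobox gene, and 31 lay within 5000 bp of a start. These roles were assigned by hand for this class, and no such share was measured for narrower peaks. The widest was at Lbx1, a homeodomain factor of spinal cord and muscle precursors, with 8992 bp and 8.08-fold. It was followed by the corepressor gene Skor1 (8535 bp, 13.8-fold), Sox14 (8526 bp, 10.6-fold), Irx5 (8145 bp, 10.0-fold) and Gbx2 (7721 bp, 10.1-fold).

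Other members of this class include Gata3, Hand2, En1, Sim2, En2, Tbx2 and Nkx6-1, each overlapping RBBP7 and none of the other 4 lists. Factors of the ganglionic eminences were in it too. The peak at Nkx2-1, the medial ganglionic eminence selector, was 6216 bp wide and overlapped the CHD4-labelled list and RBBP7. One of 5461 bp between Dlx1 and Dlx2 overlapped every other list except the HDAC2-labelled one, and one of 6052 bp at Olig2 overlapped the CHD4-labelled and HDAC1-labelled lists and RBBP7. Hmx2 had the only peak of the 36 in no other list.

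Partners changed with width in opposite ways, over 6 classes with bounds at 500, 1000, 2000, 3000 and 5000 bp. RBBP7 overlap climbed over every class, from 20.4% of peaks up to 500 bp, through 34.4%, 52.6%, 64.5% and 79.7%, to 97.2% (35 of 36, interval 85.8 to 99.5) over 5000 bp. Overlap with the CHD4-labelled list was 28.0%, 54.5% and 76.0% in the first 3 classes, then 59.3%, 40.6% and 38.9% (14 of 36) in the wider ones. MBD3 did likewise, with 73.8% at over 1000 and up to 2000 bp and 30.6% (11 of 36) over 5000 bp. Of the 36 widest, 16 overlapped RBBP7 and no other list. Counting a list only where its summit lay inside the wide peak gave the same 35 for RBBP7, 14 for the CHD4-labelled list and 11 for MBD3. RBBP4 and RBBP7 share input 3, and the part of that input in their overlap was not tested.

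**Figure D4:**
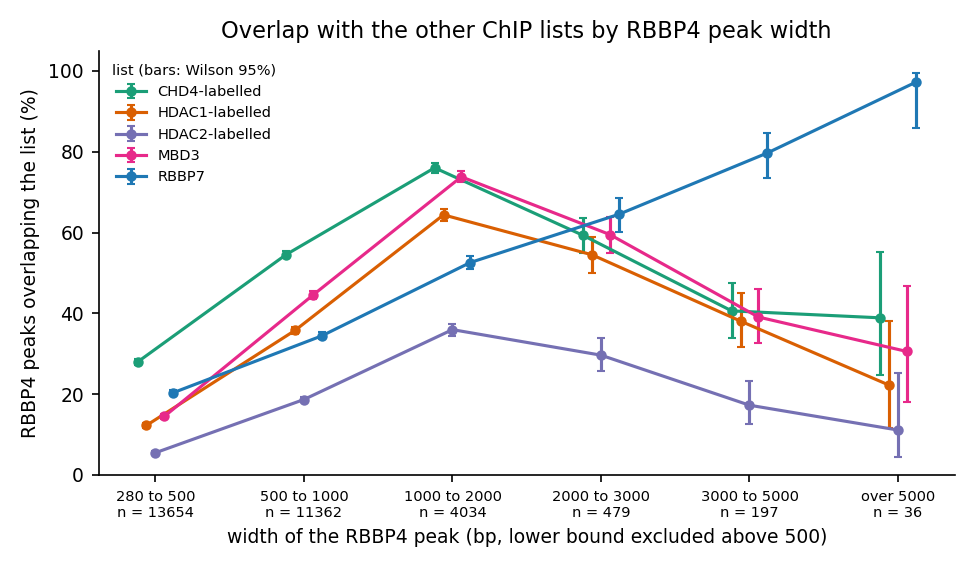
Share of RBBP4 peaks overlapping each of the other 5 ChIP lists by at least 1 bp (vertical axis, %) in 6 classes of RBBP4 peak width (horizontal axis, bp), with Wilson 95% intervals over peaks. RBBP7 climbs to 97.2% in the widest class, while the CHD4-labelled list and MBD3 are highest above 1000 and up to 2000 bp, with 76.0% and 73.8%.

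Ranked by fold enrichment, the 100 strongest RBBP4 peaks lay mostly away from gene starts, and 79 of them overlapped all 5 other lists. Fold enrichment ran from 2.2 to 46.6 with a median of 4.85, and 770 peaks (2.59%) were above 10-fold. Of the 20 strongest peaks 1 was at a gene start, 11 were inside a gene and 8 between genes, and 17 overlapped all 5 other lists, against 1497 (5.03%) of all RBBP4 peaks. Of the 100 strongest, 15 were at starts and 53 lay over 50 kb from one. This did not extend to the strongest 10% of peaks. Their share at starts was 35.8% by fold and 40.6% by −log10 q, against 36.4% of all peaks.

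Cacng4, a gene for an auxiliary subunit of AMPA receptors, held 2 of the 5 strongest peaks, of 46.6-fold (chr11:107783873-107784797, mm10) and 23.8-fold (chr11:107785011-107786426). Acvr1b, an activin receptor, held one of 28.7-fold, Pigk, an enzyme of GPI anchor attachment, one of 27.8-fold, BC052040 one of 24.8-fold and Capn2, a calpain protease, one of 22.9-fold. All 6 lay inside the gene, at least 9434 bp from a start, and overlapped all 5 other lists. The next in order were nearest to Epha5 (20.9-fold), Gtf3a (20.8-fold), Ccni inside Septin11 (20.7-fold) and Tecrl (20.2-fold). The remaining ones, of 18.3-fold to 19.9-fold, were nearest to Ifngr1, Sel1l3, Mocos, Cdca7 (inside Map3k20), Psat1, Hectd2, Ptbp2 (inside Dpyd), G2e3, Tmem161b and Castor2. Chromosome 5 held 6 of the 20. Hectd2 had the one at a start, 187 bp from an annotated end (18.8-fold).

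The strongest peaks in no other list were weaker. They were in Tbx1 (11.5-fold, 2591 bp), at the start of Tspyl2 (11.1-fold), at the start of Igf2 (10.9-fold, 3978 bp), between genes 1234981 bp from Lrrtm3 (10.3-fold) and in Hoxd8 (10.1-fold, 3494 bp).

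Across the whole list, the shares in RBBP7 and in all 5 other lists were higher at every step of strength, whereas the other partners and the position did not follow strength in a single direction. From the weakest to the strongest 10% of peaks, the share in all 5 other lists was 0.202% and 25.7% at the ends, and the share in no other list was 36.1% and 5.17%. Overlap with MBD3 was 20.6% in the weakest and 74.5% in the strongest 10%, and that with RBBP7 was 12.8% and 69.7%. Overlap with the CHD4-labelled list was 46.7% in the weakest 10%, 34.7% in the fifth step and 71.7% in the strongest. Overlap with the HDAC1-labelled list was 23.3% in the weakest 10%, 18.5% in the third step and 60.4% in the strongest. The share in no other list was highest, at 42.5%, in the third step. The share at starts was highest in the weakest 10% (44.2%, interval 42.4 to 45.9), lowest in the fifth step (31.3%) and 35.8% in the strongest 10%.

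As a contrast, the strongest 25% had 38.0% at starts and the weakest 25% had 39.9%, a difference of −1.92 points (interval −3.49 to −0.36). Ranked by −log10 q in place of fold, the order turned round, with 42.8% in the strongest 25% and 30.6% in the weakest 25%, a difference of 12.2 points (interval 10.7 to 13.7). No direction between strength and start sites can therefore be given. Across peaks, fold enrichment and −log10 q had a Spearman correlation of 0.914 and fold enrichment and width one of 0.514, given as a description of 29762 peaks of 1 library.

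**Figure D5:**
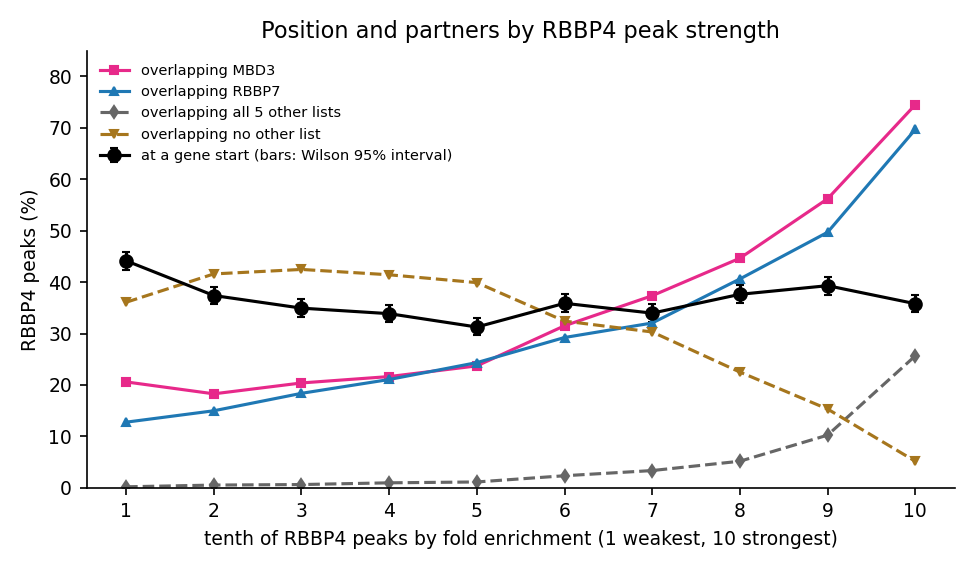
Share of RBBP4 peaks (vertical axis, %) at a gene start, in the MBD3 list, in the RBBP7 list, in all 5 other lists and in no other list, for 10 equal classes of fold enrichment from weakest (1) to strongest (10), with Wilson 95% intervals for the start share. Overlap with MBD3 and RBBP7 reaches 74.5% and 69.7% in the strongest class, while the start share is 44.2% in the weakest class and 35.8% in the strongest.

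Most RBBP4 peaks had company in at least 1 other list. At a minimum overlap of 1 bp, 20618 peaks (69.3%) overlapped another list and 9144 (30.7%) overlapped none. The CHD4-labelled list overlapped 45.2% of RBBP4 peaks, MBD3 34.9%, RBBP7 31.3%, the HDAC1-labelled list 29.2% and the HDAC2-labelled list 15.1%. As shares of the other lists, RBBP4 overlapped 92.3% of MBD3 peaks, 84.9% of the HDAC1-labelled, 84.4% of the HDAC2-labelled, 75.4% of the CHD4-labelled and 65.5% of RBBP7 peaks. With every list cut to its 5517 strongest peaks, the order of the lists changed, with MBD3 first at 41.3% and the CHD4-labelled list last at 23.9%.

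Shared peaks lay at starts more often than RBBP4-only peaks, 45.0% against 17.2%, a difference of 27.7 points (interval 26.7 to 28.8). By the number of other lists, from 0 to 5, the share at starts was 17.2%, 33.6%, 50.6%, 56.3%, 55.4% and 39.6%, so peaks in all 5 lists were at starts less often than those in 3 or 4. Median fold climbed over the same 6 classes, with 4.45, 4.67, 4.88, 5.44, 6.35 and 7.73, and median width did too, with 399 bp in no other list and 1147 bp in all 5.

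Which partner was present went with where the peak lay. RBBP4 peaks with RBBP7 but not MBD3 were at starts in 15.2% of cases (690 of 4533), and those with MBD3 but not RBBP7 in 56.8% (3186 of 5605). Of the 3010 peaks that overlapped RBBP7 and no other list, 7.08% were at a start. Of the 1886 that overlapped the CHD4-labelled and HDAC1-labelled lists and no other, 77.3% were.

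The 10 genes with most RBBP4 peaks in their body were all large. Auts2, a gene of neurodevelopmental disorder, held 56 peaks of 3.28-fold to 16.0-fold, of which 8 overlapped all 5 other lists and 19 none. Gse1, a gene for a coiled-coil protein, held 48 in a shorter body, 13.6 per 100 kb, against a median of 0.977 per 100 kb over the 2405 genes of 100 kb or more. The transcription factor genes Nfia, Npas3 and Prdm16 held 32, 29 and 27. The teneurin genes Tenm2, Tenm3 and Tenm4, which encode synaptic adhesion proteins, held 27, 27 and 25, the axon guidance receptor gene Robo1 held 26 and Lrmda held 23. Per 100 kb of body, Tenm3 (2.08), Tenm2 (2.19), Lrmda (2.22) and Robo1 (2.55) stayed under 3.11, the 90th percentile of those large genes.

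The locus targeted in the knockout carried several RBBP4 peaks. Within 20 kb of Dlx1 and Dlx2 lay 12 peaks of 3.59-fold to 17.4-fold, covering 20419 bp. The strongest (chr2:71516532-71518766) lay inside the neighbouring gene Metap1d, 11991 bp from the start of Dlx1, and ranked 28 of all peaks. The strongest of those between the genes (chr2:71534484-71536698) had 13.7-fold. Dlx2 had a summit 36 bp from its start (5.96-fold), and for Dlx1 the nearest was 1070 bp away from the start in the table, under a peak 4120 bp wide that covers the start region (7.04-fold). That peak (chr2:71527850-71531969) also covers the annotated gene end at 71528113. The paralogous pair Dlx5 and Dlx6, not targeted in the knockout, held 17 peaks of 2.82-fold to 11.1-fold within 20 kb. Other loci of like size were not counted, so it is not known whether these numbers are high.

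Most regions in the accessibility lists held an RBBP4 peak, except those of the FTpos KO-higher list. These lists hold only regions that differed between KO and WT. The share over all accessible regions is therefore not known, and a higher share in differing regions was not tested. In FTneg cells, 480 of 727 KO-higher regions (66.0%, interval 62.5 to 69.4) and 38 of 53 WT-higher regions (71.7%, interval 58.4 to 82.0) overlapped one, a difference of −5.67 points with an interval of −16.6 to 8.01 that includes 0. Restricted to regions with an area of at least 1000, 107 of 152 KO-higher and 10 of 10 WT-higher regions overlapped one, a difference of −29.6 points (interval −37.3 to −1.06) that rests on 10 WT-higher regions. In FTpos cells 1 of 12 KO-higher regions (8.33%) and 29 of 33 WT-higher regions (87.9%) overlapped one, a difference of −79.5 points (interval −89.6 to −48.5).

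Of the WT-higher regions, 5 in FTneg and 6 in FTpos lay within 20 kb of Dlx1 and Dlx2, the genes targeted in the knockout, and each of them carried RBBP4. Without that locus the differences were −2.73 points in FTneg (interval −14.6 to 11.8) and −76.9 points in FTpos (interval −88.1 to −44.5). ChIP was done at E13.5 in CD1 embryos with no labelled genotype and accessibility was measured at E12.5, so the overlap says nothing of RBBP4 in the knockout.

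Seen from the RBBP4 list, the peaks in KO-higher regions of FTneg cells were strong and distal, and those in WT-higher regions were too. The KO-higher regions held 478 peaks (1.61% of the list), with a median of 5.87-fold and 2.93% at starts. The peaks in WT-higher regions had a median of 5.97-fold with 4.88% at starts in FTneg and 6.64-fold with 6.25% at starts in FTpos. How many of the regions themselves lie at starts was not counted. The partners were less alike. In FTneg, 21.1% of peaks in KO-higher regions and 2.44% of the 41 in WT-higher regions overlapped all 5 other lists. The shares in no other list were 18.2% and 36.6%. From the weakest to the strongest 10% of peaks the share in a KO-higher FTneg region was 0.739% at the low end and 4.50% at the high end. Of peaks at starts 14 were in such a region (0.129%), against 464 away from starts (2.45%). By the area of the region, from the lowest 25% to the highest, 56.0%, 67.0%, 68.0% and 73.1% of KO-higher regions held RBBP4.

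The 10 KO-higher regions with the strongest RBBP4 peaks had 14.9-fold to 46.6-fold. The first lay in Cacng4, under the strongest peak of the list. It was followed by one 77131 bp from Ifngr1 (19.9-fold) and 2 near Sox21, a SOX factor of neural progenitors, under a single peak of 17.3-fold. The others lay near 4932438H23Rik (16.6-fold), in Auts2 (16.0-fold), near Prl5a1 (15.9-fold), in Kcnk10 (15.3-fold), near Fbxl4 (14.9-fold) and near Arid3b (14.9-fold). All 10 carried all 5 other ChIP lists under the RBBP4 peak, as did 79 of the 100 strongest RBBP4 peaks and 21.1% of the RBBP4 peaks in KO-higher FTneg regions.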

How the data were processed

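Per the labels, 21 samples were used by the study, of which 6 are ChIP libraries, 3 inputs and 12 accessibility libraries. The submitters' processing notes name MACS2 2.2.7.1, Genrich, deepTools, BWA and SAMtools 1.10, with mm10 as the build. Settings are not given in the sources used here, and the name of each ChIP list says that it was called against input and that blacklisted regions were removed. Each deposited ChIP list gives per peak the fold enrichment over input (a ratio), −log10 p and −log10 q, all the authors' values, with no counts. Each deposited accessibility list gives the authors' score per region, the area under −log10 p, kept from 500 upward. The 3 embryos of each genotype were combined.

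RBBP4 peaks were placed on 20949 RefSeq protein-coding genes of GRCm38.p6 by their summit. Start positions came from the RefSeq promoter table for 16782 genes and, for the other 4167, either annotated gene end was used. Overlap between lists needed 1 bp. Shares have Wilson and differences have Newcombe 95% intervals, and medians have order-statistic intervals. No test between conditions was possible with 1 library per antibody. The functions were tested on simulated data. Python 3.11.15, numpy 2.4.6, pandas 2.3.3, scipy 1.17.1 and matplotlib 3.10.9 were used.

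The members and gene lists were chosen with earlier results of these data known. The named items are the 20 strongest peaks, the 5 widest, the 5 strongest in no other list, the 10 genes with most peaks, up to 4 members per gene list with the highest fold and every member without a start peak where at most 8 lack one, Rbbp4, Rbbp7, Dlx1 and Dlx2, and the 10 KO-higher FTneg regions with the strongest RBBP4 peak. Other names, such as further members of the wide class and Dlx5 and Dlx6, were chosen after their values were seen. A few members that this rule names are not reported here. Ribosomal protein and olfactory receptor genes were picked by symbol.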

Additional observations from a re-analysis of the deposited data

How the results depend on the processing

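The 59 alternatives of 18 results left 17 values within the interval of the reported one, moved 41 and reversed 1, and those on the start table, either gene end, wide peaks, Hox genes, FTpos regions and the Dlx locus were chosen after seeing the data. The reversed one was strong minus weak peaks at starts, −1.92 points by fold and 12.2 points by −log10 q (−8.37 points for the top and bottom 10% by fold). The start share of 36.4% was 31.1% with 500 bp, 42.1% with 2500 bp, 40.4% at a −log10 q of at least 10, 41.2% with all genes of the table, 29.5% with the start table only and 33.1% with either end of every gene. The gene share of 48.1% was 44.0% with 500 bp, 50.6% with 2500 bp, 46.9% at a −log10 q of 5 or more and 34.5% at 10 or more, and 45.8% with either end of every gene. For Hox genes 82.1% became 59.0% at a −log10 q of at least 10, 53.8% with 500 bp and 100% with 2500 bp. Overlap with the other lists under 50% of the peak, summits within 250 bp, −log10 q of at least 10 and equal length was 36.7%, 29.3%, 38.6% and 23.9% for CHD4-labelled, 18.4%, 22.4%, 13.2% and 33.3% for HDAC1-labelled, 7.41%, 11.3%, 5.33% and 34.1% for HDAC2-labelled and 24.8%, 29.4%, 27.3% and 41.3% for MBD3, and 21.5%, 26.7% and 19.4% under the first 3 for RBBP7. Shared minus RBBP4-only peaks at starts was 27.7 points and 20.3, 18.1 and 26.4 points under the first 3. The FTneg difference was −29.6 points at an area of at least 1000. The CpG difference of 0.507 was 0.361 with the summit inside the window and 0.439 at a −log10 q of at least 10. RBBP7 overlapped 82.4% of peaks over 3000 bp. The causes were not tested. No paired analysis was possible because each antibody has 1 library and the accessibility lists combine the embryos, and for the same reason no replicate could be left out.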

Other observations

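RBBP4 peaks also lay over microRNA genes. Of 1005 hairpins in the RefSeq table, 66 (6.57%, interval 5.20 to 8.27) overlapped an RBBP4 peak. No share was measured for other intervals of like size, and many of these hairpins lay under peaks at gene starts. Several of the hairpins sit inside other loci described above, which was noticed after the values were seen. Mir196b, within the HoxA cluster, lay under a peak of 6.62-fold that overlapped 1 other list, and Mir10a, within the HoxB cluster, under one of 5.99-fold in no other list. Mir219a-1, a microRNA of oligodendrocyte differentiation, lay under a peak of 5.97-fold in 4 other lists, at a gene start. Along the chromosome, the median distance from an RBBP4 summit to the nearest other one was 13348 bp (quartiles 2010 and 41019 bp), and 34.9% of peaks had another within 5000 bp, with 35.1% at starts and 34.8% away from them.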
